A study of Mus musculus with 12 samples.

Results

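A list of 31 genes of the tricarboxylic acid (TCA) cycle, and of the routes by which pyruvate, glutamate and aspartate join it, was followed in mouse bone marrow monocytes. The genes were taken by name, of the 54532 genes in the count files, by their known roles and not by a threshold on measured values. All 31 were found and all 31 passed the filter on low counts, which kept 14324 genes. The list holds citrate synthase, the isocitrate dehydrogenases, the oxoglutarate dehydrogenase complex, fumarase and malate dehydrogenases (12 genes), pyruvate carriers and pyruvate dehydrogenase with its regulators (9 genes), pyruvate carboxylase and the malic enzymes (3 genes), citrate use and export with the dicarboxylate carriers (4 genes), and the enzymes that join glutamate and aspartate to the cycle (3 genes).

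Mice had received succinate at 300 mM for 7 days or had not. From their bone marrow, CD11b+Ly6Chi monocytes, the inflammatory subset, were sorted and cultured for 4 h with lipopolysaccharide (LPS), a bacterial wall component, or without it, and total RNA was sequenced. The 4 groups of 3 libraries were succinate with LPS, control with LPS, succinate unstimulated and control unstimulated. Strain, age and LPS dose were not given in the sources used here. Nor do the labels say that replicates came from separate animals, so p-values measure the spread between these libraries, which may be technical.

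The TCA cycle oxidises acetyl groups in mitochondria, and succinate is one of its intermediates. Pyruvate enters as acetyl-CoA through pyruvate dehydrogenase or as oxaloacetate through pyruvate carboxylase, and glutamate enters as oxoglutarate through glutamate dehydrogenase or the transaminases. In macrophages, LPS is known to alter flux through the cycle, with accumulation of succinate and of itaconate, which Acod1 makes from cis-aconitate. Several steps exist as a cytosolic and a mitochondrial enzyme encoded by different genes.

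Total counts per library ranged from 15975882 to 18306747, and levels are given as CPM, a library-size-scaled count. Markers of the labelled cell type were read: Ly6c2 was at 485 to 1630 CPM and Csf1r at 213 to 616 CPM over the 12 libraries. The 8 Ly6C-high markers ran from Ms4a4c, at 5.31 to 138 CPM, to Lyz2, at 2410 to 6300 CPM. Ccr2 was at 22.6 to 132 CPM. Neutrophil-lineage genes were also present, with S100a9 at 1430 to 5510 CPM and Mpo at 585 to 1810 CPM. Camp, Ltf and Elane of the same list were at 567 to 2170, 714 to 1170 and 610 to 1370 CPM. The neutrophil marker Ly6g was the lowest of the 9 listed, at 2.06 to 8.33 CPM. T cell genes Cd3e and Cd3d stayed at or below 0.646 CPM. In bulk RNA, fewer cells of a type and less RNA per cell cannot be told apart. The libraries were also divided into 2 sets by the mean log2 CPM of S100a4, Rpl24, Rpl10-ps3, Gm14303 and Rpl35a-ps2, cut at its largest gap. Such a cut always gives 2 sets. The value was 3.144 to 4.06 in 5 libraries, namely control LPS replicate 3 and all unstimulated libraries except the 2 numbered 1, and 0.827 to 1.445 in the other 7. Every succinate library with LPS was in the lower set, so the sets are partly confounded with LPS and with succinate. Each LPS call was also computed with this set as a covariate, which cannot fully separate it from the treatments.

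To set genes side by side, levels were divided by exonic length, the merged length of all annotated exons of a gene. That length can differ from that of the transcripts expressed, so comparisons of levels between genes depend on the annotation. On this measure the glutamate dehydrogenase gene Glud1 was the most abundant member, with a mean of 122 CPM per kb over the 12 libraries. Cytosolic isocitrate dehydrogenase Idh1 followed at 50.4 CPM per kb, then ATP-citrate lyase Acly at 46.9, citrate synthase Cs at 43.0 and the oxoglutarate dehydrogenase E1 gene Ogdh at 42.1 CPM per kb. The group means of Idh1, Acly, Cs and Ogdh overlapped in range, so their order is not firm. The lowest levels per length were those of malic enzyme 1 (Me1, 0.68 CPM per kb), pyruvate carboxylase (Pcx, 0.644 CPM per kb) and pyruvate dehydrogenase kinase 2 (Pdk2, 0.451 CPM per kb). Among the subunits of pyruvate dehydrogenase, Pdhb and Pdha1 of the E1 enzyme had 23.1 and 22.1 CPM per kb, the E2 gene Dlat 10.8 and the E3-binding protein gene Pdhx 4.02 CPM per kb. Idh3a, the catalytic subunit of NAD-dependent isocitrate dehydrogenase, had 3.67 CPM per kb, below its partners Idh3g at 22.5 and Idh3b at 17.6 CPM per kb.

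**Figure D1:**
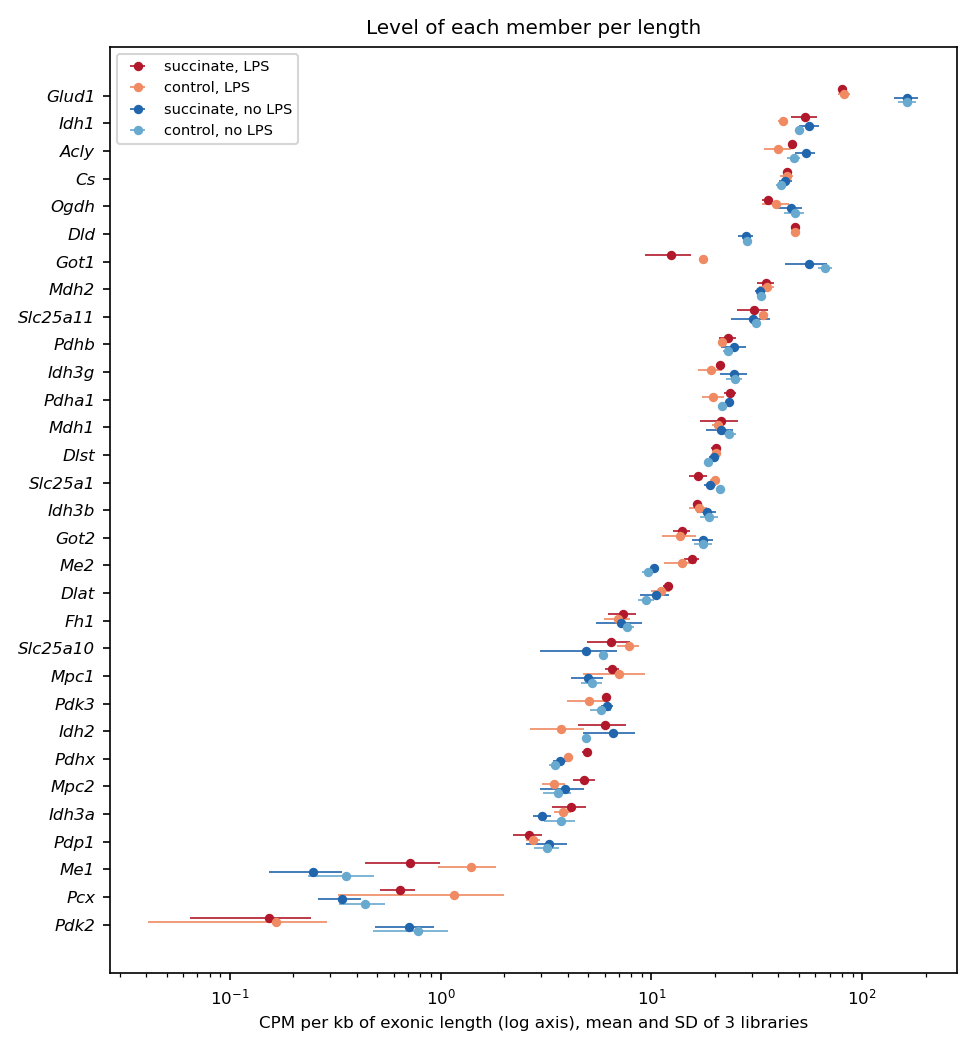
Level of each of the 31 members in CPM per kb of exonic length on a log axis, with points for the mean and lines for the SD of 3 libraries in each of the 4 groups, ordered by the mean over all libraries. Glud1 leads with 122 CPM per kb and Pdk2 is lowest with 0.451 CPM per kb, and the points of the LPS and unstimulated groups stand apart for Glud1, Got1, Dld, Me1 and Pdk2.

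Exons of 8 members overlap a gene on the opposite strand. The overlap partner held 95.5% as many counts as the member for Slc25a11 (Rnf167), 62.7% for Idh3b (Nop56) and 15.0% for Pdha1 (Map3k15), and how overlapping reads were assigned is not known here. Mpc1, a subunit of the mitochondrial pyruvate carrier, has near-identical copies at Gm8219 and Mpc1-ps that together held 181% of its own counts, so its level is uncertain. Near-identical copies of Glud1, Got2, Me1 and Pdhb held at most 1.04% of the member's counts, and the other members had none.

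Promoter sequences are shown for 4 members that changed with LPS in both kinds of mice: Got1, Glud1 and Dld, which had the smallest adjusted p-values, and Me1, which had the largest rise. Each is the 250 bases before the RefSeq start site on GRCm38.p6, read 5′ to 3′ on the gene's strand. Where a gene had several RefSeq promoters, only that with the most upstream start site was used, here and in the shares below. Me1 had 2. Capitals mark matches, on either strand, to the CCAAT box (CCAAT), the amino acid response element (TGATGNAA), the ETS site (CCGGAAG) or a kappa-B site. Got1 lies at chr19:43524606-43524855 on the minus strand, Glud1 at chr14:34310477-34310726 on the plus strand, Dld at chr12:31351472-31351721 on the minus strand and Me1 at chr9:86695915-86696164 on the minus strand.
Got1: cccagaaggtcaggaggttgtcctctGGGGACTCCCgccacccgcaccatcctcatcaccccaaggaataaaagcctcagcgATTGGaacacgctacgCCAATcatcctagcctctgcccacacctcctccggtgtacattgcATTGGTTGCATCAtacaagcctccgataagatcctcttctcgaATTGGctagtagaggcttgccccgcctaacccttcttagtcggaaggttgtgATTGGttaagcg
Glud1: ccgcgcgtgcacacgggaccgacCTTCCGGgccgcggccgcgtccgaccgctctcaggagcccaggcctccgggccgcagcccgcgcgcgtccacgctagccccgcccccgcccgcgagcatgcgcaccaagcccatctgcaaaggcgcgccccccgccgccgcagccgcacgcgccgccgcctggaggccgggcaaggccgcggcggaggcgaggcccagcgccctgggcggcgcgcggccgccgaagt
Dld: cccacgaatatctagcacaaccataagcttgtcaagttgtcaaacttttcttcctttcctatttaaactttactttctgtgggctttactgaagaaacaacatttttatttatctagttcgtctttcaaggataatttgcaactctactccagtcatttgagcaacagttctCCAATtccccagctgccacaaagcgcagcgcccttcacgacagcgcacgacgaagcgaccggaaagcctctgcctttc
Me1: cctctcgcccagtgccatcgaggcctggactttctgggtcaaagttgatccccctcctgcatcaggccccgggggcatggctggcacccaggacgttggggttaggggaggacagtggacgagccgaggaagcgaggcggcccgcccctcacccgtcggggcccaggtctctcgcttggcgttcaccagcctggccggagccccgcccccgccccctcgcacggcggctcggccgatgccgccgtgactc

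The 4 promoters differed in base composition and in these matches. That of Got1, at 54.4% GC, held 5 CCAAT matches, the nearest ending 8 bases before the start site. As many CCAAT matches were found in 63 of 27025 RefSeq promoters of the same length (0.233%), and no other member had more than 3. It also held an amino acid response element match, directly beside a CCAAT match, and a kappa-B match, motifs found in 3.53% and 3.74% of all promoters. The promoter of Dld, at 43.6% GC, held 1 CCAAT match, and that of Glud1, at 82.0% GC, held 1 ETS match, a motif found in 7.07% of all promoters. The promoter of Me1, at 72.0% GC, had no match to the motifs in capitals. A match is a description of letters and not of binding. RefSeq promoters were at hand for 28 of the 31 members, with a median GC content of 62.0% beside 52.0% for all promoters. The CCAAT box was in 60.7% of the members' promoters and 34.5% of all promoters, and the GC box (GGGCGG, either strand, not in capitals above) in 67.9% and 33.0%, without regard to base composition. The kappa-B site was in 10.7% of the members' promoters (Slc25a1, Slc25a10 and Got1), and the interferon-stimulated response element in none of them, beside 3.05% of all promoters.

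With LPS, the glutamate dehydrogenase gene and the cytosolic aspartate transaminase gene fell, and the genes of dihydrolipoamide dehydrogenase and of both malic enzymes rose, in succinate and in control mice. Of the 31 members, 8 were called in succinate mice (25.8%), at an adjusted p below 0.05 in edgeR's quasi-likelihood test with Benjamini-Hochberg adjustment over all genes tested. Of all genes tested, 30.2% were called there. The 8 were 4 higher and 4 lower, beside 14.1% and 16.2% of all genes. In control mice 8 of the 31 members were called (25.8%), and 30.1% of all genes tested were. Again 4 were higher and 4 lower, beside 15.3% and 14.8% of all genes. An unadjusted p below 0.05 was found for 10 members (32.3%) in succinate mice, beside 40.0% of all genes, and for 11 (35.5%) in control mice, beside 39.2%. Libraries of the 2 groups did not overlap for 7 members higher and 7 lower in succinate mice, beside 19.9% and 21.5% of all genes, and for 9 higher and 6 lower in control mice, beside 22.3% and 23.2%. The members' share was thus close to that of all genes in both, and 6 genes were called in both, which is 75.0% of each list. Of all genes tested, 3317 were called in both, which is 76.6% of the calls in succinate mice and 77.0% of those in control mice. The 6 members were Dld, Me1 and Me2, which rose, and Got1, Glud1 and Pdk2, which fell. The median log2 fold change of the 31 members was 0.013 in succinate mice, beside -0.017 over all genes tested, and -0.1 in control mice, beside -0.004. The median absolute log2 fold change was 0.22 for members and 0.36 for all genes in succinate mice, and 0.24 and 0.35 in control mice.

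Of the 3 glutamate and aspartate genes, Got1 and Glud1 fell in both kinds of mice. Got1 (ENSMUSG00000025190, GRCm38 chromosome 19, 43499752 to 43524605, minus strand) encodes the cytosolic aspartate transaminase, which exchanges aspartate and oxoglutarate for oxaloacetate and glutamate. It had 23.0, 33.4 and 38.0 CPM in succinate mice with LPS, against 151, 106 and 167 CPM in unstimulated succinate cells. In control mice it had 44.9, 44.0 and 44.2 CPM with LPS, against 155, 178 and 175 CPM without. Every LPS library lay far below every unstimulated library. The log2 fold change was -2.17 ± 0.18 (SE, adjusted p = 4.6e-07) in succinate mice and -1.93 ± 0.18 (adjusted p = 1.14e-06) in control mice. Got2, the mitochondrial aspartate transaminase, had log2 fold changes of -0.33 ± 0.14 (adjusted p = 0.0881) and -0.35 ± 0.14 (adjusted p = 0.0706) for succinate and control mice, neither of them called.

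Glud1 (ENSMUSG00000021794, chromosome 14, 34310727 to 34345265, plus strand) encodes mitochondrial glutamate dehydrogenase, which turns glutamate into oxoglutarate. It had 327, 347 and 335 CPM in succinate mice with LPS, against 636, 627 and 792 CPM in their unstimulated cells. In control mice the values were 332, 331 and 373 CPM with LPS, against 609, 726 and 734 CPM without. The LPS libraries of both kinds of mice lay in one narrow range, with no overlap with the unstimulated ones. Glud1 fell, with a log2 fold change of -1.03 ± 0.12 (adjusted p = 9.3e-06) in succinate mice and -1.0 ± 0.12 (adjusted p = 1.18e-05) in control mice. The calls of Got1 and Glud1 held under all 21 alternative settings, the covariate for the library sets included. Summed over the 31 members, the level was 2574 ± 53.3 CPM in succinate mice with LPS and 3023 ± 201 CPM without (SD, n = 3), and 2508 ± 165 and 2983 ± 150 CPM in control mice with and without LPS. Without Glud1 and Got1 the sums were 2207 ± 50.8 and 2197 ± 97.0 CPM in succinate mice with and without LPS, and 2118 ± 141 and 2124 ± 70.6 CPM in control mice.

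In the cycle itself, Dld was the member that changed most. Dld (ENSMUSG00000020664, chromosome 12, 31331277 to 31351453, minus strand) encodes dihydrolipoamide dehydrogenase, the E3 subunit shared by pyruvate dehydrogenase, oxoglutarate dehydrogenase, the branched-chain oxoacid dehydrogenase and the glycine cleavage system. Its level was 169, 177 and 183 CPM in succinate mice with LPS, against 113, 99.9 and 97.7 CPM without. Control mice had 169, 177 and 185 CPM with LPS, against 108, 101 and 104 CPM without. The LPS libraries were all above the unstimulated ones, by 1.7-fold in both kinds of mice (log2 fold change 0.77 ± 0.10 in each, adjusted p = 1.95e-05 in succinate and 1.85e-05 in control mice). This call held under all 21 alternative settings.

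The partners of Dld in the oxoglutarate dehydrogenase complex were not called higher. Ogdh, the E1 subunit of oxoglutarate dehydrogenase, had 181, 200 and 202 CPM in succinate mice with LPS, against 218, 249 and 283 CPM without. Control mice had 205, 187 and 247 CPM with LPS and 227, 276 and 279 CPM without, and these 2 groups overlap. Its log2 fold change was -0.36 ± 0.13 in succinate mice (adjusted p = 0.0488) and -0.29 ± 0.13 in control mice (adjusted p = 0.116). The call in succinate mice rested close to the threshold and held in 6 of 21 alternatives. It was lost when any single library other than replicate 1 of either unstimulated group was left out (adjusted p 0.0516 to 0.178), and with the library sets as covariate the log2 fold change was -0.16 (adjusted p = 0.298). Dlst, the E2 subunit, had log2 fold changes of 0.03 ± 0.09 in succinate mice and 0.13 ± 0.09 in control mice, with 95% intervals of -0.17 to 0.22 and -0.07 to 0.32.

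Among the genes from citrate to oxoglutarate, Idh3g, a regulatory subunit of NAD-dependent isocitrate dehydrogenase, was the 1 of 6 that was called, in control mice. It had 56.2, 56.5 and 59.4 CPM in succinate mice with LPS, against 62.6, 59.9 and 77.9 CPM without. Control mice had 47.6, 47.9 and 59.4 CPM with LPS, against 60.2, 69.8 and 71.0 CPM without, with a gap of under 1 CPM between the groups. The log2 fold change was -0.22 ± 0.13 (adjusted p = 0.213) in succinate mice and -0.37 ± 0.13 (adjusted p = 0.0374) in control mice. The call was lost without control unstimulated replicate 2 (adjusted p = 0.147) or 3 (0.17), without control LPS replicate 1 (0.179) or 2 (0.177), and without succinate LPS replicate 2 (0.056). Idh3a had a log2 fold change of 0.45 ± 0.17 in succinate mice (adjusted p = 0.0545, called in 10 of 21 alternatives) and 0.03 ± 0.17 in control mice.

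The first and last steps of the cycle showed small differences. Cs had log2 fold changes of 0.02 ± 0.10 in succinate mice and 0.10 ± 0.10 in control mice, with levels between 226 and 274 CPM over all 12 libraries. For the fumarate and malate genes (fumarase Fh1 and malate dehydrogenases Mdh1 and Mdh2) no call was made, and log2 fold changes lay between 0.00 and 0.08 in succinate mice and between -0.18 and 0.09 in control mice. Over these 3 genes the 95% intervals reached from -0.35 to 0.39 in succinate mice and from -0.52 to 0.31 in control mice.

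Of the 6 genes of the pyruvate carrier and pyruvate dehydrogenase, Pdhx was called in succinate mice and none was called in control mice. Pdhx, which docks Dld onto the E2 core of pyruvate dehydrogenase, had 18.6, 19.1 and 20.4 CPM in succinate mice with LPS, against 15.6, 14.4 and 13.4 CPM without. It had 16.3, 15.5 and 15.5 CPM in control mice with LPS, against 14.6, 13.5 and 12.9 CPM without. The groups did not overlap in either kind of mouse. The log2 fold change was 0.42 ± 0.12 (adjusted p = 0.0175) in succinate mice and 0.21 ± 0.12 (adjusted p = 0.235) in control mice. The call was lost without succinate LPS replicate 3 (adjusted p = 0.0644), without succinate unstimulated replicate 3 (0.0583), with the library sets as covariate (0.0691) and with no filter on low counts (0.0863). Pdha1, Pdhb and Dlat had log2 fold changes from -0.13 to 0.24 in the 2 comparisons. Of the carrier genes, Mpc1 had 0.38 ± 0.21 in succinate mice, where the groups did not overlap, and 0.43 ± 0.21 in control mice, and Mpc2 had 0.31 ± 0.17 and -0.06 ± 0.17. None of these 4 values was called (adjusted p 0.147 to 0.842).

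Of the 3 regulators of pyruvate dehydrogenase, only Pdk2 was called. Pdk2 encodes a kinase that switches the complex off by phosphorylation, and it was the scarcest member, with 2 to 53 counts per library. It had 0.68, 0.62 and 0.161 CPM in succinate mice with LPS, against 2.0, 1.69 and 3.02 CPM without. Control mice had 0.915, 0.519 and 0.128 CPM with LPS, against 1.39, 3.19 and 2.81 CPM without. All LPS libraries were below all unstimulated ones, and the log2 fold change of Pdk2 was -2.18 ± 0.56 (adjusted p = 0.00836) in succinate mice and -2.21 ± 0.57 (adjusted p = 0.00798) in control mice. Pdk3, a kinase of the same family that had 9.82 to 17.0 CPM, and the phosphatase gene Pdp1, at 10.1 to 16.7 CPM, had log2 fold changes of -0.02 and -0.31 in succinate mice and -0.19 and -0.23 in control mice, none of them called.

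All 3 genes of pyruvate carboxylation and malic enzyme had positive log2 fold changes with LPS. Me1 (ENSMUSG00000032418, chromosome 9, 86581371 to 86695953, minus strand) encodes the cytosolic malic enzyme, which makes NADPH and pyruvate from malate. It had 3.97, 1.97 and 2.31 CPM in succinate mice with LPS, against 0.999, 1.28 and 0.569 CPM without. Control mice had 7.2, 5.06 and 3.91 CPM with LPS, against 1.85, 0.902 and 1.37 CPM without. The LPS groups were above the unstimulated ones with no overlap, at a level of 10 to 118 counts per library. Me1 rose with a log2 fold change of 1.53 ± 0.40 (adjusted p = 0.00843) in succinate mice and 1.96 ± 0.38 (adjusted p = 0.000971) in control mice. With the library sets as covariate, the value in succinate mice was 1.19 (adjusted p = 0.0579).

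Me2, the mitochondrial malic enzyme, was more abundant. It had 118, 118 and 102 CPM in succinate mice with LPS, against 77.2, 74.1 and 73.5 CPM without. In control mice it had 84.9, 98.2 and 119 CPM with LPS, against 72.0, 64.7 and 73.8 CPM without. No LPS library reached down to an unstimulated one, and the log2 fold changes were 0.59 ± 0.12 (adjusted p = 0.00191) in succinate mice and 0.52 ± 0.12 (adjusted p = 0.00454) in control mice. These calls held under all 21 alternatives.

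Pcx, which carboxylates pyruvate to oxaloacetate, was called in control mice. It had 3.66, 2.54 and 2.91 CPM in succinate mice with LPS, against 1.23, 1.98 and 1.65 CPM without. Control mice had 10.1, 3.64 and 2.82 CPM with LPS, against 1.5, 2.22 and 2.5 CPM without. Replicate 1 of control with LPS stood far above the other 2. The log2 fold change was 0.90 ± 0.43 (adjusted p = 0.129) in succinate mice and 1.41 ± 0.41 (adjusted p = 0.0174) in control mice. Without that library the control value was 0.67 (adjusted p = 0.159), and without control unstimulated replicate 1 it was 1.22 (adjusted p = 0.0682).

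None of the 4 genes of citrate use, citrate export and dicarboxylate exchange was called. Acly, which splits exported citrate into acetyl-CoA and oxaloacetate, had log2 fold changes of -0.21 ± 0.12 in succinate mice and -0.24 ± 0.12 in control mice. The citrate carrier Slc25a1 had -0.19 ± 0.11 and -0.08 ± 0.11 for succinate and control mice, and the oxoglutarate carrier Slc25a11 had 0.01 ± 0.15 and 0.11 ± 0.15. The dicarboxylate carrier Slc25a10, which exchanges succinate or malate for phosphate, had 0.38 ± 0.23 (adjusted p = 0.241) and 0.39 ± 0.23 (adjusted p = 0.23).

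**Figure D2:**
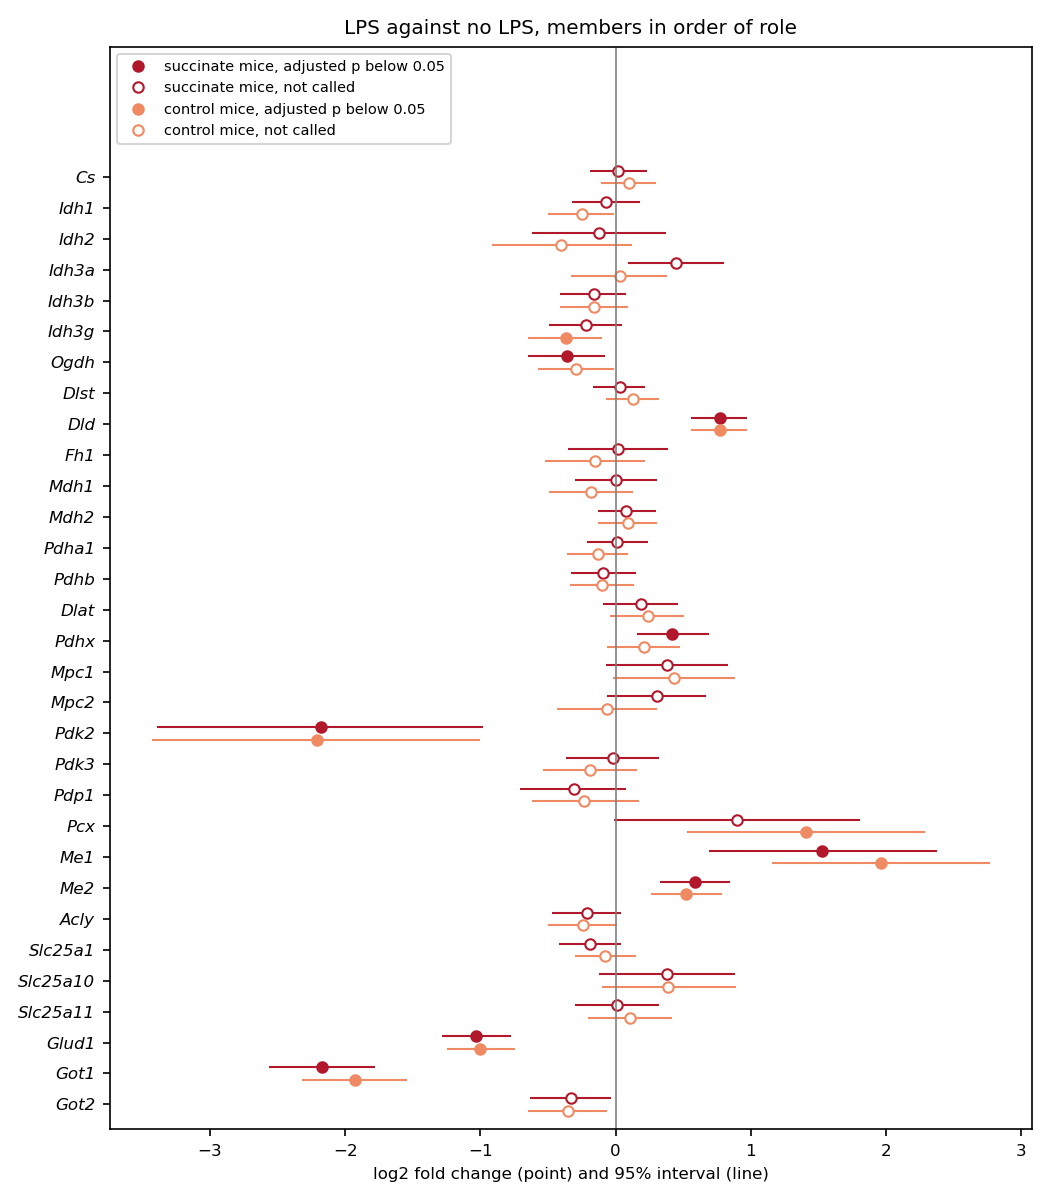
Log2 fold change of LPS against unstimulated for each member in succinate and in control mice, with 95% intervals. Filled points are those called at an adjusted p below 0.05. Got1, Glud1 and Pdk2 lie below 0 and Dld, Me1 and Me2 above 0 in both kinds of mice.

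**Figure D3:**
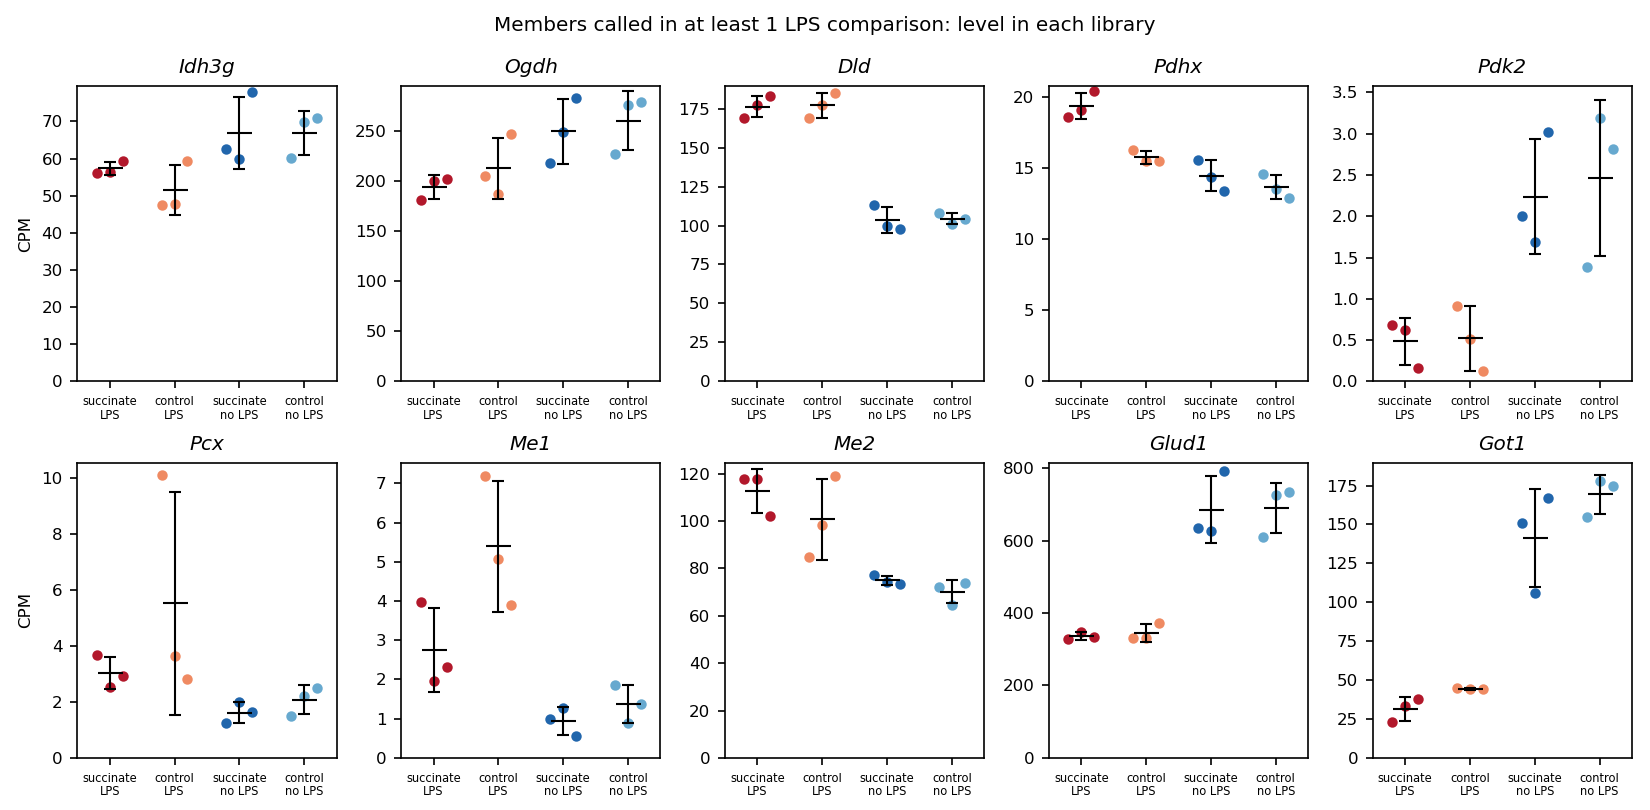
CPM in each library for the 10 members called in at least 1 LPS comparison, with a point per library and bars for the mean and SD of each of the 4 groups. Got1 ranges from 23.0 to 38.0 CPM in succinate cells with LPS and from 155 to 178 CPM in unstimulated control cells.

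Marker sums moved with LPS as well. The summed level of the 8 Ly6C-high markers was 4000 to 5570 CPM in succinate mice with LPS and 4910 to 7670 CPM without, and 5270 to 5640 CPM and 7640 to 8070 CPM in control mice with and without LPS. The sum of 9 neutrophil-lineage markers was 12600 to 14800 CPM with LPS and 6150 to 8640 CPM without in succinate mice, and 11000 to 14400 CPM with and 7180 to 10900 CPM without in control mice. The sums of 5 Ly6C-low markers and of 5 dendritic cell markers were higher with LPS with no overlap in both kinds of mice. For Ly6C-low they were 692 to 792 CPM with and 501 to 585 CPM without LPS in succinate mice, and 659 to 785 CPM and 482 to 611 CPM in control mice. For dendritic cells they averaged 19.2 CPM with and 10.1 CPM without LPS in succinate mice, and 24.4 CPM and 8.25 CPM in control mice. In succinate mice the sums of 5 B cell markers (122 to 144 CPM with LPS and 163 to 226 CPM without) and of 5 T and NK cell markers (32.0 to 42.9 CPM and 18.9 to 23.8 CPM) also did not overlap. Nor did those of 3 proliferation markers, at 1640 to 1770 CPM with LPS and 1270 to 1590 CPM without. In control mice the proliferation sums overlapped. Such sums are weighted to their most abundant gene, so they need not show the listed markers moving together. Over the 12 libraries Itgal had 382 to 656 CPM, and no other Ly6C-low marker exceeded 95.5 CPM. Xcr1 had 1.14 to 22.5 CPM, and no other dendritic cell marker exceeded 4.74 CPM. Ighm had 61.9 to 208 CPM and other B cell markers at most 10.2 CPM. Nkg7 had 17.6 to 40.5 CPM and other T and NK cell markers at most 1.47 CPM. None of the markers was at 0 over a whole group. Their part in the changes of the members was not tested.

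The LPS effect was next compared between succinate and control mice. No member was called for the interaction, in which 0.0% of all genes tested were called by edgeR's quasi-likelihood test, and none had an unadjusted p below 0.05, against 3.91% of all genes. DESeq2 and limma-voom called no member either. The difference between the LPS effects, succinate minus control, was -0.24 ± 0.25 on the log2 scale for Got1 (95% interval -0.77 to 0.30) and -0.43 ± 0.55 for Me1 (-1.61 to 0.75). For Dld its interval ran from -0.29 to 0.29.

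In 4 cases a step is encoded by a cytosolic and a mitochondrial gene, and the cytosolic share of their summed CPM per kb was computed in each library. For aspartate transaminase, Got1 made up 40.5%, 49.8% and 49.2% in succinate mice with LPS and 60.5%, 56.7% and 51.4% in control mice with LPS. Without LPS it made up 79.3%, 70.3% and 77.0% in succinate mice and 79.5%, 79.5% and 78.5% in control mice. No LPS library overlapped the unstimulated ones. For malic enzyme, Me1 made up 4.37% ± 1.46 in succinate mice with LPS, 9.48% ± 4.01 in control mice with LPS, 2.33% ± 0.864 in unstimulated succinate cells and 3.52% ± 1.04 in unstimulated control cells (SD, n = 3). Idh1 made up 89.9% ± 1.37, 91.8% ± 2.47, 89.7% ± 1.52 and 91.1% ± 0.161 in the same order of groups, and Mdh1 37.8% ± 2.53, 36.9% ± 1.1, 39.2% ± 1.92 and 41.1% ± 1.5. In control mice the Mdh1 share was 36.8%, 38.0% and 35.8% with LPS and 41.5%, 39.5% and 42.4% without, with no overlap. The Me1 share did not overlap there either, and in succinate mice both overlapped. These shares depend on the exonic lengths used, which come from the annotation. They are a description and were not tested.

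**Figure D4:**
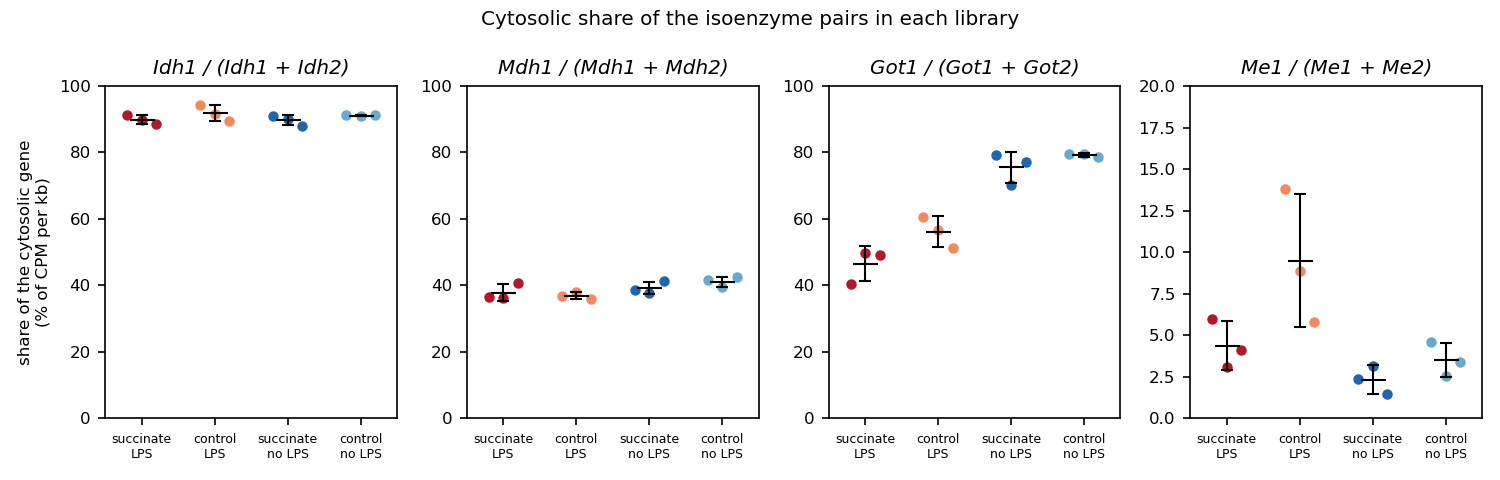
Share of the cytosolic gene in each isoenzyme pair, as a percentage of summed CPM per kb, with a point per library and the mean and SD of 3 libraries. The Got1 share lies between 40.5% and 60.5% with LPS and between 70.3% and 79.5% without. Group means run from 89.7% to 91.8% for the Idh1 share and from 36.9% to 41.1% for the Mdh1 share. The axis of the Me1 panel ends at 20%.

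Without LPS, no difference between succinate and control was detectable for the members with 3 libraries per group. None of the 31 was called between succinate and control by edgeR's quasi-likelihood test, DESeq2 or limma-voom, and none had an unadjusted p below 0.05. Of all genes tested, 0.0% were called and 3.73% had an unadjusted p below 0.05. With the levels of 3 libraries per group, 4 members lay higher in every succinate library than in every control library, beside 3.65% of all genes, and 1 lay lower, beside 4.27%. Those higher were Idh1, Idh2, Dlst and Pdha1, and the lower one was Slc25a1. The summed B cell markers were 163 to 226 CPM in these succinate libraries and 124 to 150 CPM in the control ones, and their part in these differences was not tested.

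With LPS, no member was called between succinate and control by edgeR's quasi-likelihood test, DESeq2 or limma-voom, while 0.0628% of all genes tested were, all of them lower. An unadjusted p below 0.05 was found for 9 of the 31 members (29.0%) and for 11.7% of all genes. Of these 9, 5 were higher in succinate mice (Idh1, Idh2, Pdha1, Pdhx and Mpc2) and 4 were lower (Pcx, Me1, Slc25a1 and Got1), with adjusted p-values of 0.248 to 0.42. Groups did not overlap for 5 members that lay higher, beside 6.95% of all genes, and for 2 that lay lower, beside 10.2%. Those higher were Idh1, Idh2, Pdhx, Mpc2 and the kinase Pdk3, and those lower were Slc25a1 and Got1. Scaling by library size alone placed the median of all genes at 0.107 on the log2 scale instead of -0.014, and the direction of these 9 members did not change under any of the alternatives. Pcx, with a log2 fold change of -0.86 ± 0.40, was at -0.10 without control LPS replicate 1 and at -1.18 without control LPS replicate 3.

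The 2 NADP-dependent isocitrate dehydrogenase genes lay higher in every succinate library than in every control library, with LPS and without, though neither was called. The pair was named after its values were seen, and the share of all genes that separated in both conditions was not computed. The nearest libraries were close. They were at 13.2 and 12.4 CPM with LPS and 13.2 and 12.9 CPM without for Idh2, and at 126 and 123, and 142 and 140 CPM for Idh1. Idh2, the mitochondrial enzyme, had 13.4, 13.2 and 20.2 CPM in succinate mice with LPS, against 6.89, 9.61 and 12.4 CPM in control mice with LPS. Without LPS it had 13.2, 15.6 and 22.2 CPM in succinate mice, against 12.7, 12.9 and 12.5 CPM in control mice. Replicate 3 was the highest of the succinate libraries in both. The log2 fold change was 0.70 ± 0.24 with LPS (95% interval 0.19 to 1.21, adjusted p = 0.253) and 0.42 without (-0.08 to 0.92). Idh1 had 151, 126 and 167 CPM in succinate mice with LPS, against 123, 114 and 112 CPM in control mice with LPS, a log2 fold change of 0.34 ± 0.12 (95% interval 0.1 to 0.59, adjusted p = 0.248). Without LPS it had 142, 149 and 174 CPM in succinate mice, against 140, 138 and 139 CPM in control mice. Mpc2, the partner of Mpc1 in the mitochondrial pyruvate carrier, had 37.7, 37.7 and 30.3 CPM in succinate mice with LPS, against 26.7, 27.7 and 21.9 CPM in control mice with LPS. These 2 groups did not overlap, and the log2 fold change was 0.47 ± 0.17 (95% interval 0.1 to 0.84, adjusted p = 0.287).

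With LPS, Got1 and Slc25a1 had lower levels in every succinate library than in every control library, though neither was called. The Got1 levels with LPS given above gave a log2 fold change of -0.50 ± 0.18 (95% interval -0.88 to -0.11, adjusted p = 0.286). Slc25a1 had 34.0, 34.2 and 40.1 CPM in succinate mice with LPS, against 44.9, 40.8 and 44.2 CPM in control mice with LPS, a log2 fold change of -0.26 ± 0.11 (adjusted p = 0.352). Me1 had a log2 fold change of -0.97 ± 0.35 (adjusted p = 0.288), with replicate 1 of succinate at 3.97 CPM just above replicate 3 of control at 3.91 CPM.

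The 95% interval of the difference varied between members. For succinate against control with LPS it ran from -0.21 to 0.21 on the log2 scale for Cs, from -0.19 to 0.20 for Dlst, from -0.21 to 0.20 for Dld and from -0.23 to 0.20 for Mdh2. For Ogdh it ran from -0.42 to 0.15, and for Pdk2 from -1.47 to 1.26. The share of counts from mitochondrial genes was 1.22% to 1.26% in succinate mice with LPS and 0.984% to 1.07% in control mice with LPS. The summed level of 5 T and NK cell markers was 32.0 to 42.9 CPM in succinate mice with LPS and 18.8 to 31.2 CPM in control mice with LPS, with Nkg7 the most abundant. Their part in these differences was not tested.

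**Figure D5:**
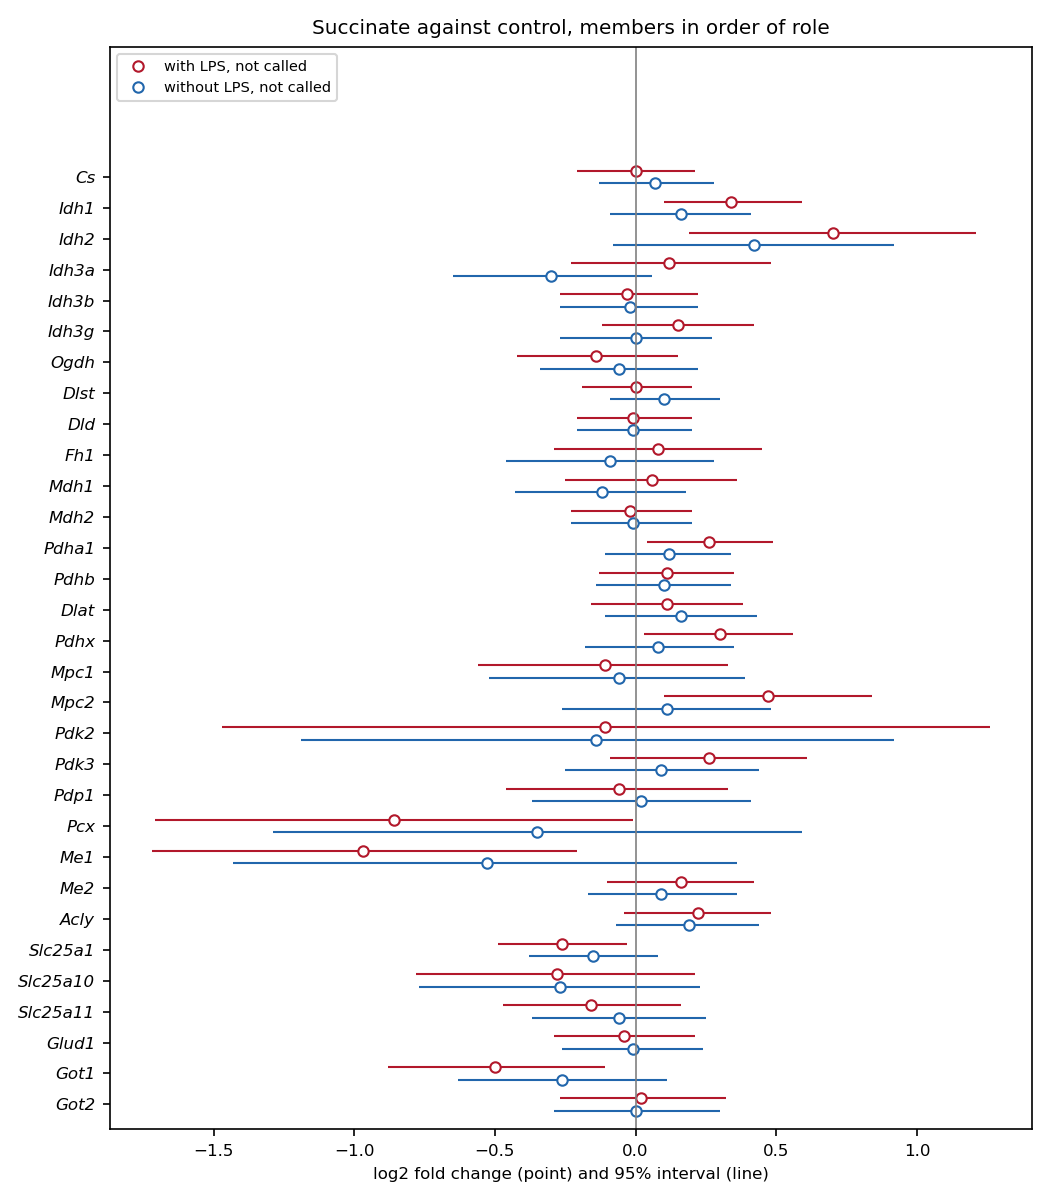
Log2 fold change of succinate against control for each member with LPS and without, with 95% intervals. No point is called. The interval of Idh2 with LPS runs from 0.19 to 1.21 and that of Got1 from -0.88 to -0.11.

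Genes of 5 neighbouring lists were read in the same tests. Between succinate and control, with LPS or without, and for the interaction, none of their genes was called by edgeR's quasi-likelihood test. With LPS, the list of other glutamine, glutamate and aspartate entry genes had a median log2 fold change of -0.33 for succinate against control, beside -0.014 over all genes. In it the glutamine transporter genes Slc38a1 (-0.51 ± 0.12, adjusted p = 0.0764) and Slc1a5 (-0.48 ± 0.11, adjusted p = 0.0965) were each called in 3 of 21 alternatives. Asns (-0.40 ± 0.11, adjusted p = 0.135) was called in 2, and the aspartate-glutamate carrier Slc25a13 (0.55 ± 0.14, adjusted p = 0.114) in 1. Of 13 genes for the succinate and aconitate steps and itaconate, 1 rose and 1 fell with LPS in succinate mice, and 1 rose and 1 fell in control mice. The one that rose was Acod1, the itaconate-forming enzyme, with 3200 ± 478 CPM with LPS and 155 ± 47.4 CPM without in succinate mice (log2 fold change 4.37 ± 0.23, adjusted p = 4.62e-09). In control mice it had 4300 ± 517 CPM with LPS and 165 ± 26.8 CPM without (4.70 ± 0.23, adjusted p = 2.33e-09; SD, n = 3 in each group). The cytosolic aconitase Aco1 fell, with log2 fold changes of -0.70 ± 0.12 and -0.50 ± 0.12 for succinate and control mice. The succinate dehydrogenase genes (Sdha to Sdhd) and the succinyl-CoA ligase genes were not called. The succinate receptor gene Sucnr1 had 2 counts over all 12 libraries and was not tested.

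Among 13 tested genes of other pyruvate dehydrogenase regulators, lipoylation and lactate, 1 rose and 6 fell in succinate mice, and 1 rose and 5 fell in control mice. Their median log2 fold change was -0.5 and -0.33 in succinate and control mice. Gcsh, the lipoyl-carrying H protein of the glycine cleavage system, which also uses Dld, had 5.16 ± 1.47 CPM with LPS and 35.1 ± 4.97 CPM without in succinate mice (log2 fold change -2.76 ± 0.20, adjusted p = 1.23e-07). In control mice it had 5.96 ± 1.35 and 37.0 ± 1.95 CPM with and without LPS (-2.63 ± 0.20, adjusted p = 1.79e-07). Pdpr, the regulatory subunit of the pyruvate dehydrogenase phosphatase, had log2 fold changes of -0.59 and -0.94 in succinate and control mice, and the lactate exporter gene Slc16a3 -0.99 and -1.03.

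Among 14 tested genes of other glutamine, glutamate and aspartate entry, 2 rose and 6 fell in succinate mice, and 4 rose and 3 fell in control mice. The glutamine transporter gene Slc1a5 had 200 ± 22.9 CPM with LPS and 375 ± 24.9 CPM without in succinate mice, and 278 ± 25.3 and 408 ± 26.9 CPM in control mice with and without LPS. Its log2 fold changes were -0.91 ± 0.11 (adjusted p = 2.23e-05) and -0.55 ± 0.11 (adjusted p = 0.00167). Asparagine synthetase Asns, which uses aspartate and glutamine, rose by 0.50 ± 0.11 in succinate mice and 0.80 ± 0.11 in control mice, and the mitochondrial glutamate carrier Slc25a22 by 0.62 ± 0.16 and 1.15 ± 0.16.

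Of 10 tested genes that use exported citrate, acetyl-CoA or NADPH, 1 rose and 4 fell in succinate mice, and 2 rose and 2 fell in control mice. Carnitine acetyltransferase Crat rose by 1.03 ± 0.15 on the log2 scale in succinate mice and 0.96 ± 0.15 in control mice. Fatty acid synthase Fasn had 80.0 ± 13.2 CPM with LPS and 188 ± 56.1 CPM without in succinate mice (log2 fold change -1.23 ± 0.23, adjusted p = 0.000839), and 80.4 ± 21.1 and 173 ± 32.7 CPM in control mice (-1.11 ± 0.23, adjusted p = 0.00191). Of 12 tested genes of mitochondrial biogenesis and the outer membrane, 2 rose and 3 fell in succinate mice, and 2 rose and 1 fell in control mice. The porin gene Vdac3 rose by 0.69 ± 0.11 and 0.84 ± 0.11 in succinate and control mice, and Esrra, a nuclear receptor that drives mitochondrial genes, by 0.81 ± 0.12 and 0.71 ± 0.12.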

How the data were processed

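RNA-seq counts of 12 libraries in 4 groups of 3 were used, with groups taken from the sample titles. The deposited files hold whole-number counts of reads per gene, which the authors did not normalise. Per the submitters' processing notes, Trim Galore and the mm10 build were used. Which aligner, counter, annotation and strand setting were used was not given in the sources used here. Reads shared by overlapping genes or near-identical copies may have been split or lost. Depth was 15975882 to 18306747 counts per library. With 3 libraries per group, the median standard error of a member's log2 fold change between 2 groups was 0.13.

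Genes were tested on the counts with edgeR 4.0.16 (R 4.3.3): filterByExpr, trimmed-mean scaling, 1 mean per group over all 12 libraries, and the quasi-likelihood test. The 5 comparisons were succinate against control with and without LPS, LPS against none in succinate and in control mice, and the interaction. P-values were Benjamini-Hochberg adjusted over 14324 genes, and an adjusted p below 0.05 was a call. Standard errors follow from the test statistic, and intervals are 95%. CPM use the same scaling. For the unstimulated groups, same-numbered libraries had correlations of deviations of 0.116 to 0.26. Over all groups such pairs ran from -0.129 to 0.377, and a differently numbered pair reached 0.29. In both unstimulated groups replicate 1 was in the lower library set and the others in the higher. Pairing, which the labels do not state, and the library sets thus cannot be told apart there. The test was also run on simulated independent counts, with spreads taken from these data and changes set only in the more abundant genes. That run cannot speak for the scarce members Pdk2, Me1 and Pcx, for the library sets or for pairing. The members, the 5 neighbouring lists and the marker genes were chosen with earlier results of these data known. Per-library values are given for members called in any comparison. Of each neighbouring list up to 4 called genes with the smallest adjusted p could be named, plus Acod1 and Sucnr1. Members named for their values between succinate and control, and further neighbouring genes named as not called, were chosen after their values were seen.

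Of the identifiers, 54409 of 54532 were in GENCODE M21 (GRCm38), which gave coordinates and exonic lengths. Copies were sought with BLAST 2.17.0 among transcripts. Promoters are RefSeq's (GRCm38.p6). Alternatives were another filter or none, other scalings, DESeq2 1.42.0, limma-voom (limma 3.58.1), the replicate number as a block, the library sets as a covariate, a fit of the compared groups only, and leaving out each library.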

Additional observations from a re-analysis of the deposited data

How the results depend on the processing

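Each of 155 results (31 members in 5 comparisons) was recomputed under 21 alternatives, fewer where a fit lacked the gene or group. Of 3224 values, 3167 kept their side of the threshold, 27 lost a call, 30 gained one and 0 reversed a call. Estimates that were not called could change sign. For succinate against control with LPS, the log2 fold change of Cs ran from -0.05 to 0.12 and that of Mpc1 from -0.3 to 0.16. The number of members called with LPS was 8 in succinate mice and 8 in control mice, and leaving out 1 library at a time gave 6 to 9 and 6 to 11. For succinate against control with LPS the count of 0 became 2 with no filter on low counts (Idh2, log2 fold change 0.71, adjusted p = 0.0176, and Got1, -0.48, adjusted p = 0.0291); the cause was not tested. It stayed at 0 in the other alternatives, as did the counts for succinate without LPS and for the interaction in all of those run.

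The labels do not say whether replicate numbers pair libraries. Of 18 same-numbered pairs, 7 had a correlation of deviations above 0.1 (range -0.129 to 0.377), and a library correlated best with its own number in 23 of 36 cases. All 3 pairs of the unstimulated groups were above 0.1, and the block left 0 members called there. With the replicate block, 10 members were called with LPS in succinate mice and 10 in control mice. Got2 was gained in both (-0.33, adjusted p = 0.0159, and -0.36, adjusted p = 0.00911), Idh3a in succinate mice (0.44, 0.0242) and Ogdh in control mice (-0.29, 0.0438).

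Over all genes, calls for succinate against control with LPS numbered 9, against 694 with no filter, 30 with a stricter one, 346 in DESeq2, 34 in limma-voom, 77 with the block, 190 with the library sets as covariate, and 0 with library size alone or the compared groups only. Without LPS 0 became 72 with no filter and 1 in DESeq2, and for the interaction 71 and 3. The members with the fewest counts were Pdk2 (2 to 53 per library), Me1 (10 to 118) and Pcx (21 to 165).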

Other observations

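A comparison added after the others had been seen averaged the succinate effect over both culture conditions, in the same edgeR fit of 12 libraries, which it shares with them. No member and 0.0% of all genes were called, while 9 of the 31 members (29.0%) and 12.6% of all genes had an unadjusted p below 0.05. Idh2 averaged 16.3 CPM in succinate mice and 11.1 CPM in control mice over 6 libraries each, with a log2 difference of 0.56 (95% interval 0.20 to 0.92, adjusted p = 0.198). Idh1 averaged 152 and 128 CPM in succinate and control mice (0.25, 0.08 to 0.43, adjusted p = 0.229). Got1 averaged 86.4 CPM in succinate mice and 107 CPM in control mice (-0.38, -0.65 to -0.11, adjusted p = 0.241). Acly averaged 265 CPM in succinate mice and 230 CPM in control mice (0.20, 0.02 to 0.39, adjusted p = 0.325). The rest of the 9 were Me1 (-0.75, adjusted p = 0.276) and Slc25a1 (-0.21, 0.28), which were lower, and Pdha1 (0.19, 0.297), Mpc2 (0.29, 0.334) and Pdhx (0.19, 0.389), which were higher.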
